A study of Mus musculus with 6 samples.

Results

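Subunits of voltage-gated and potassium channels were followed in the ventricles of mice at postnatal day 14 (P14) and postnatal day 1 (P1). The members were all genes of the count table whose symbol names a potassium channel subunit (Kcn), a pacemaker channel (Hcn), a voltage-gated sodium channel subunit (Scn with a or b) or a voltage-gated calcium channel subunit (Cacna, Cacnb or Cacng), apart from the noncoding RNA Kcnq1ot1. They numbered 60 of the 14495 genes of the table, in 11 channel classes. GENCODE M21 annotates 138 protein-coding genes with such symbols, and the others are not analysed here. No gamma subunit of the calcium channels (Cacng), Hcn3 or Scn4b was among the 60.

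Both ages were male C57BL/6 mice, for which the labels give no genetic change and no treatment. Each age had 3 libraries, and each library held poly(A)-selected RNA of a separate pool of 3 hearts. The protocol describes ventricles with the septum and without atria, while the tissue label says left ventricle. Total counts were 15725993, 9104230 and 9295536 in P14 replicates 1 to 3 and 17353933, 13406479 and 5916557 in P1 replicates 1 to 3. Of 5 cardiomyocyte markers, 3 rose and 2 did not pass, and their summed level was 56390 to 76690 CPM (counts scaled to a common library size) at P14 and 51870 to 52740 CPM at P1. Of the 5 atrial markers 3 fell and 2 did not pass, and their sum was 421 to 567 CPM at P14 and 777 to 1638 CPM at P1. Macrophage markers rose for 4 of 5 genes, with sums of 131 to 134 CPM at P14 and 37.1 to 42.1 CPM at P1, and erythroid markers rose for 3 of 4. In RNA from whole tissue, fewer cells of a type and less RNA per cell cannot be told apart.

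An action potential of a ventricular myocyte starts with sodium current, is held by calcium current through L-type channels, and ends with potassium currents. Each channel is a pore protein, alone or as an assembly, with accessory subunits that set its gating and its delivery to the membrane. In mice the ventricular action potential shortens after birth, as transient outward and delayed rectifier potassium currents grow, and pacemaker and T-type calcium currents of the working ventricle become small. The tests below ask how the transcripts of these subunits differ between P14 and P1.

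Of the 60 members 58 passed the filter on low counts, and of these 23 rose, 11 fell and 24 did not pass. Here a gene rose or fell at P14 if its Benjamini-Hochberg adjusted p, over 14301 genes in the quasi-likelihood test of edgeR, was below 0.05. Where a setting is followed by a number in parentheses, that number is the adjusted p of the gene in that setting. Called members made up 58.6% of those tested, where 43.8% of all tested genes were called. Rises were 39.7% of the tested members against a background of 21.8%, and falls were 19.0% against 22.0%. The values of the P14 libraries did not overlap those of the P1 libraries for 37 of the 58 tested members. The same held for 7844 of all 14301 tested genes (54.8%). The median log2 fold change, P14 over P1, was 0.52 for the members and −0.01 for all tested genes. After correction for GC content and length the medians were 0.236 for the members and −0.000685 for all tested genes. With scaling to library totals alone, without the TMM factors, 15 members rose and 17 fell, and the medians were 0.06 and −0.47. Rises were the larger part of the member calls with TMM scaling and not with totals alone. The shares of all tested genes called with totals alone are not given here, so the counts in that setting have no background beside them. The number of members that fell was 6 without P14 replicate 1 and also 6 without P1 replicate 1.

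**Figure D1:**
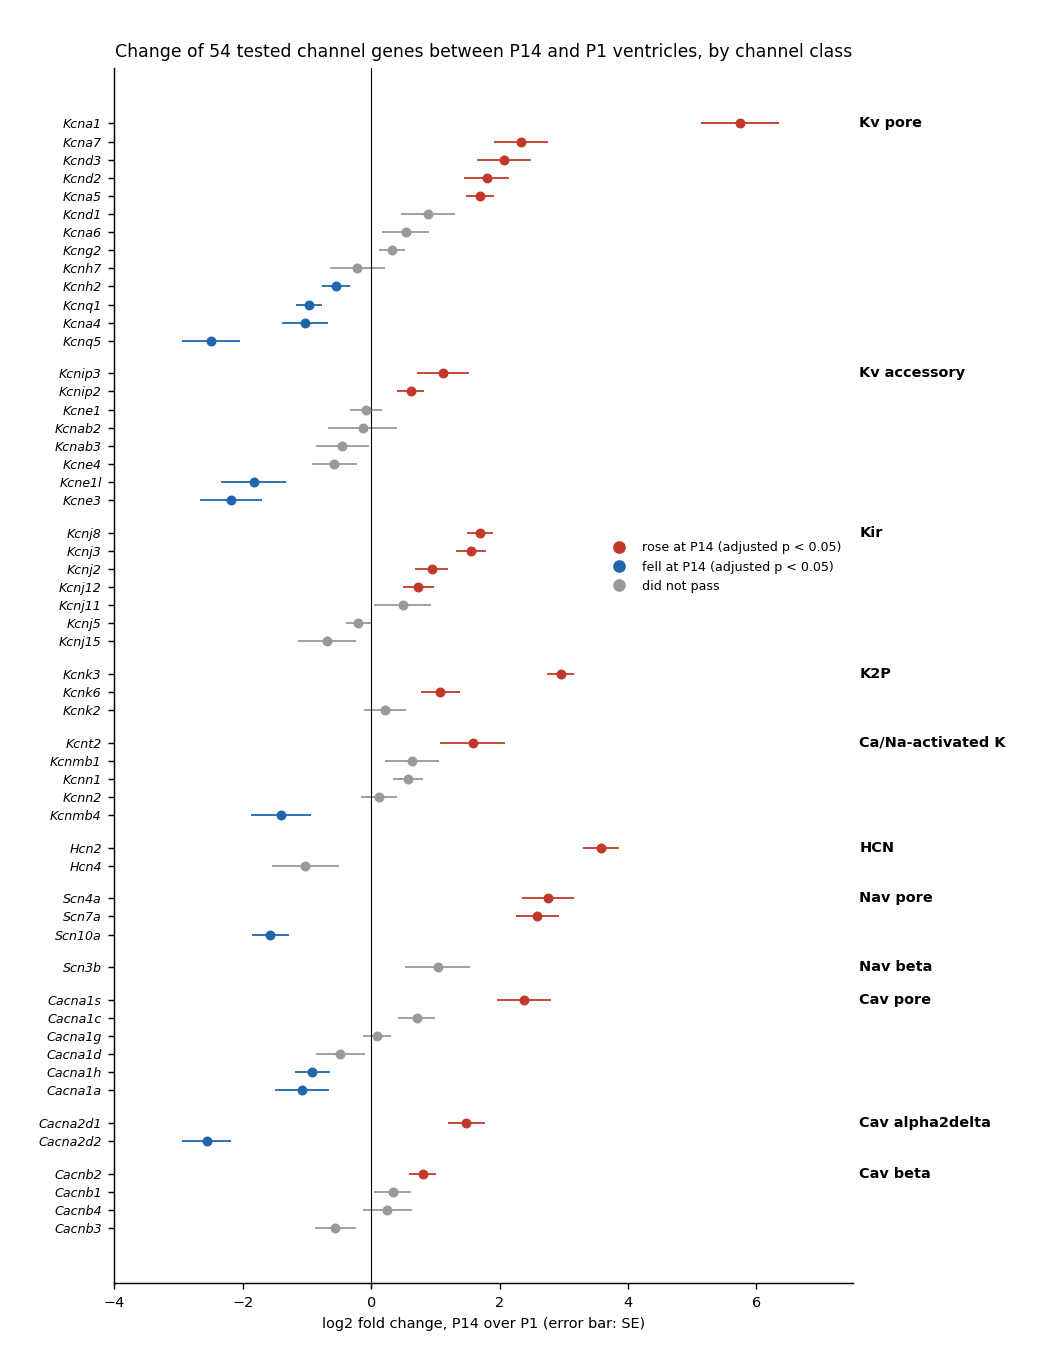
Log2 fold change (P14 over P1) with its standard error for 54 tested channel genes, grouped by class; red genes rose, blue genes fell and grey genes did not pass in edgeR's test. Rises and falls stand beside each other within most classes, with Kcna1 at 5.74 and Cacna2d2 at −2.56 at the ends.

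The starts of 3 genes with opposite changes are shown. They were picked from called members with a single RefSeq transcription start whose upstream window lay outside the exons of the gene. Among these, Hcn2 and Kcnd3 had the largest rises and Kcna4 the largest fall. Kcnh2, with the next largest fall among them, is not printed. Hcn2 encodes a pacemaker channel, and Kcnd3 and Kcna4 both encode transient outward potassium channels. Each sequence is the 250 bases before a RefSeq transcription start in GRCm38.p6, on the strand of the gene, with CG dinucleotides in capitals, the sites that DNA methylation in mammals mostly uses. The Hcn2 window is chr10:79716384-79716633 on the plus strand, the Kcnd3 window chr3:105451640-105451889 on the plus strand, and the Kcna4 window chr2:107290339-107290588 on the plus strand. In GENCODE M21 the Hcn2 gene starts at 79716634, directly after its window. Kcnd3 starts at 105452330 and Kcna4 at 107290639 there, both further downstream, so the RefSeq starts of these genes differ from those of GENCODE.
Hcn2: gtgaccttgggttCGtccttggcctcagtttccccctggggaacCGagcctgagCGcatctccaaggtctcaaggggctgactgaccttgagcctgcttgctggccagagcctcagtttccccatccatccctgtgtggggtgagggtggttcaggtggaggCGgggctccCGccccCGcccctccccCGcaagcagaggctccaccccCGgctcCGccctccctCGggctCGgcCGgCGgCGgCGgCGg
Kcnd3: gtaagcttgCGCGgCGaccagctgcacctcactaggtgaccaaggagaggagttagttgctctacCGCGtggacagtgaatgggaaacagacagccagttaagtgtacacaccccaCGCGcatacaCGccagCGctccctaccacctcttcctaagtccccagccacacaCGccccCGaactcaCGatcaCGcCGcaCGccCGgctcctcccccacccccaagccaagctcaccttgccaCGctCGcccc
Kcna4: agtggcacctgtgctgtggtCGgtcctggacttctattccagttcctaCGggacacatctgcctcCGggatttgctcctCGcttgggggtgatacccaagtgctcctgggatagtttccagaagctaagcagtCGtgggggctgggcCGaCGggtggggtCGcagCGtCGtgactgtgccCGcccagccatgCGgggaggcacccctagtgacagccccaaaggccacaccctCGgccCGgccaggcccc
These windows held 16, 18 and 14 CG dinucleotides in the order given. The median over all 32851 windows of the RefSeq table was 6, and that over 59 windows of 41 members was 9. For 19 members the table held no window. The median was 8 in 20 windows of members that rose and 12 in 10 windows of members that fell, with ranges of 1 to 36 and 3 to 43. The GC box GGGCGG, searched on both strands, was found 3 times in the Hcn2 window, once in that of Kcna4 and not in that of Kcnd3. It was present in 32.7% of all windows and in 27 of the 59 member windows. The TATA box TATAAA was in none of the 3 windows, in 1 member window and in 12.4% of all windows. DNA methylation was not measured in these files.

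Among the 15 pore subunits of voltage-gated potassium channels 7 rose, 4 fell and 4 did not pass. Kcnd2, Kcnd3, Kcna5, Kcna1 and Kcna7 were among those that rose, and Kcnq1, Kcnh2, Kcna4 and Kcnq5 fell. Kcnd2, a pore of the fast transient outward current, had 4.71, 11.4 and 10.8 CPM at P14 and 2.78, 2.27 and 2.53 CPM at P1, a 3.49-fold rise (edgeR adjusted p = 9.03e-04). All P14 libraries were above all P1 libraries, with P14 replicate 1 the lowest of its age. Kcnd3, the other pore of that current, had 4.15, 6.77 and 4.89 CPM at P14 against 0.601, 1.87 and 1.35 CPM at P1, and rose 4.19-fold (edgeR adjusted p = 0.00113). Kcna4, the pore of the slow transient outward current, went the other way, with 1.20, 1.99 and 1.67 CPM at P14 and 2.78, 3.73 and 3.199 CPM at P1 (log2 fold change −1.03 ± 0.36, SE; edgeR adjusted p = 0.0301). That call rests on 13 to 17 counts per P14 library, and it ended without P14 replicate 1 (edgeR adjusted p = 0.11), P14 replicate 3 (0.0713), P1 replicate 2 (0.0715) or P1 replicate 3 (0.0654), and after correction for GC content and length (0.0596). The direction stayed negative in each of these settings.

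Kcna5, which carries an ultrarapid potassium current, had 43.8, 33.1 and 39.3 CPM at P14 and 12.6, 11.2 and 12.1 CPM at P1, which is 3.23-fold (edgeR adjusted p = 2.26e-05). Every P14 value was above every P1 value. Kcng2, an electrically silent subunit that works only with other pore subunits, did not pass, with 41.8 ± 3.81 CPM at P14 and 33.4 ± 5.96 CPM at P1 (SD, n = 3; edgeR adjusted p = 0.205).

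Kcna1, best known from axons, had 58, 45 and 44 counts in the P14 libraries and 4, 0 and 0 counts in the P1 libraries, which is 4.08, 5.97 and 5.67 CPM against at most 0.185 CPM. Its fitted log2 fold change was 5.74 ± 0.61 (SE; edgeR adjusted p = 5.39e-06), a size that depends on how 0 counts are treated and was 8.77 without P1 replicate 1 and 5.09 without P1 replicate 2. Kcna7, a muscle potassium channel, had 2.67, 3.45 and 2.32 CPM at P14 against 0.694, 0.408 and 0.505 CPM at P1 and rose 5.03-fold (edgeR adjusted p = 4.70e-04). Kcna1, Kcna5 and Kcna6 are neighbours on chromosome 6, with gaps of 61.9 kb between Kcna1 and Kcna6 and 105.0 kb between Kcna1 and Kcna5. The first and the second rose, and Kcna6 had a log2 fold change of 0.53 that did not pass (edgeR adjusted p = 0.246). Only 59.96% of the 36-base windows of the Kcna6 transcript were free of matches in other transcripts, mostly on the opposite strand, so its count is uncertain.

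Kcnq1, the pore of the slow delayed rectifier current of large mammals, had 42.9, 33.9 and 36.4 CPM at P14 and 81.9, 57.8 and 82.7 CPM at P1. Every P14 value was below every P1 value, and the fitted change was −0.97 ± 0.21 on the log2 scale (SE, edgeR adjusted p = 0.00176). Kcnq1 lies on chromosome 7 at 143106362 to 143427042 (GRCm38), and its exons overlap Kcnq1ot1, a long noncoding RNA on the opposite strand. In all, 97.0% of the 36-base windows of its transcript had no match in another gene. Kcnh2, the pore of the rapid delayed rectifier, had 36.7, 31.2 and 39.3 CPM at P14 and 60.6, 39.3 and 57.6 CPM at P1 (log2 fold change −0.55 ± 0.21, SE). Its highest P14 value was almost that of P1 replicate 2, and its edgeR adjusted p was 0.0488. With DESeq2 the adjusted p was 0.0538, and the edgeR call ended without P14 replicate 1 (0.088), 2 (0.188) or 3 (0.0791), or without P1 replicate 1 (0.169) or 3 (0.157). After GC and length correction the log2 fold change of Kcnh2 was −1.19 (1.04e-05). Kcnq5, a relative of Kcnq1 found in neurons and smooth muscle, had 0.422, 0.266 and 0.773 CPM at P14 and 2.45, 2.86 and 3.03 CPM at P1 and fell 5.65-fold (edgeR adjusted p = 4.97e-04). It was near the lower limit of detection at P14, with 6, 2 and 6 counts, so the size of its fall is uncertain. Kcnd1, a further transient outward pore, and Kcnh7, a relative of Kcnh2, did not pass, with log2 fold changes of 0.89 and −0.22.

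Of 8 accessory subunits of these channels 2 rose, 2 fell and 4 did not pass. Kcnip2, the partner of the Kcnd pores that sets the size of the transient outward current, was among the most abundant members, with 264, 236 and 200.1 CPM at P14 and 180.4, 119.6 and 157 CPM at P1. Its rise was 1.53-fold (edgeR adjusted p = 0.0282), smaller than the folds of Kcnd2 and Kcnd3. The call ended without P14 replicate 1 (0.0872), P14 replicate 2 (0.0857) or P1 replicate 3 (0.056), and with library totals alone, where the log2 fold change was 0.17 (0.606). Kcnip3, a relative of it, had 1.99 ± 0.295 CPM at P14 and 0.895 ± 0.284 CPM at P1 (SD, n = 3; edgeR adjusted p = 0.0382). That call ended with DESeq2 (adjusted p = 0.0805), with library totals alone (0.256), after GC and length correction (0.0565), and without P14 replicate 1, 2 or 3 or P1 replicate 2 or 3 (0.0616 to 0.118). Kcne1, the partner of Kcnq1, did not follow Kcnq1 downward. It had 199, 91.8 and 134 CPM at P14 and 169, 137 and 142 CPM at P1, so the ages overlapped (log2 fold change −0.08 ± 0.25, SE; edgeR adjusted p = 0.823). The log2 fold change was positive, at 0.16 without P14 replicate 2 and 0.02 without P1 replicate 1, and did not pass in either case (adjusted p = 0.671 and 0.969).

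The relatives Kcne3 and Kcne1l, which alter the gating of several potassium channels, both fell. Kcne3 had 0.563, 0.531 and 0.515 CPM at P14 against 3.38, 2.62 and 1.01 CPM at P1 (edgeR adjusted p = 0.00246). Kcne1l had 1.97, 0.133 and 0.901 CPM at P14 against 4.67, 3.62 and 3.54 CPM at P1 (log2 fold change −1.83, edgeR adjusted p = 0.0102), with a log2 fold change of −2.90 without P14 replicate 1. Both were near the lower limit of detection at P14, with 4 to 8 counts per library for Kcne3 and 1 to 28 for Kcne1l. Kcne4, Kcnab2 and Kcnab3 did not pass, with fitted log2 fold changes of −0.57, −0.13 and −0.45.

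**Figure D2:**
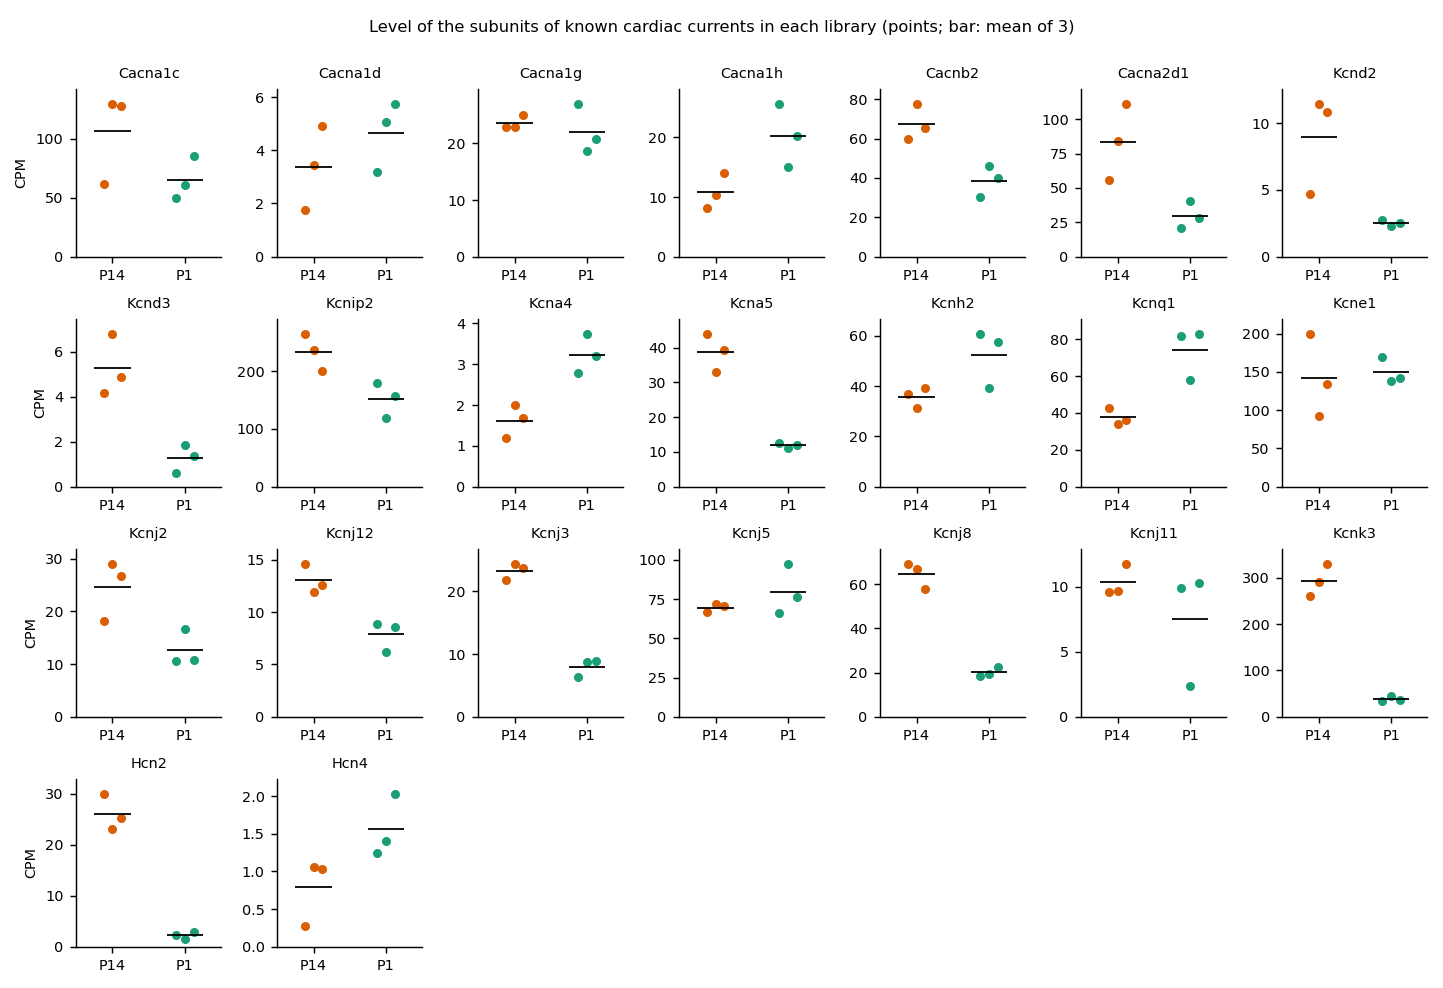
CPM (linear axes from 0) of 23 subunits of known cardiac currents in each of the 3 P14 libraries (orange) and 3 P1 libraries (green), with a bar at the mean. Kcnk3, Hcn2, Kcna5 and Kcnj8 show gaps between the ages, while Kcne1, Kcnj5 and Cacna1g overlap.

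Inward rectifiers set the resting potential and answer to metabolism and to the vagus nerve. Of 7 tested genes 4 rose and 3 did not pass, and none of the 7 fell with TMM scaling in edgeR, in DESeq2 or at an unadjusted edgeR p under 0.05. With library totals alone Kcnj5 and Kcnj15 were called lower. The pores of the resting inward rectifier current both rose. Kcnj2 had 18.2, 28.9 and 26.7 CPM at P14 and 10.6, 16.6 and 10.8 CPM at P1 (1.92-fold, edgeR adjusted p = 0.00887). Kcnj12 had 14.6, 11.9 and 12.6 CPM at P14 and 8.88, 6.24 and 8.59 CPM at P1 (1.66-fold, edgeR adjusted p = 0.0251). The values of each gene were separate between ages, but with library totals alone the calls of Kcnj2 (0.187) and Kcnj12 (0.457) ended. The call of Kcnj2 also ended without P14 replicate 2 (0.0534), and that of Kcnj12 without P14 replicate 1 (0.0765), 2 (0.0508) or 3 (0.0604) and after GC and length correction (0.0844).

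Of the partners of the acetylcholine-gated channel, Kcnj3 rose and Kcnj5 did not pass. Kcnj3 had 21.8, 24.3 and 23.7 CPM at P14 and 6.38, 8.69 and 8.92 CPM at P1 and rose 2.93-fold (edgeR adjusted p = 1.01e-04). Kcnj5 had 66.5, 71.7 and 70.6 CPM at P14 and 66.0, 97.2 and 76.3 CPM at P1 and did not pass (log2 fold change −0.20 ± 0.20, SE; edgeR adjusted p = 0.44). With library totals alone Kcnj5 was called lower, at −0.67 (0.0239). Per kilobase of exon Kcnj3 took 22.8, 23.3 and 23.2% of the pair at P14 and 8.0, 7.43 and 9.51% at P1. Of the 36-base windows of the Kcnj3 transcript 69.8% had no match elsewhere, the rest lying mainly in Gm26794 on the opposite strand. Kcnj3 is a gene of the atria and nodes in adult hearts. Of the atrial markers, Nppa, Myl4 and Bmp10 fell, and Myl7 and Sln did not pass. Nppa and Myl4 had the highest averages of these markers at P1, with 594 and 493 CPM, and averaged 221 and 112 CPM at P14. The part of atrial tissue in the level of Kcnj3 was not tested.

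Of the pores of the ATP-sensitive channel, Kcnj8 rose and Kcnj11 did not pass. Kcnj8, the form of vascular smooth muscle and pericytes that is also present in heart muscle, had 69.0, 67.2 and 57.8 CPM at P14 against 18.3, 19.5 and 22.6 CPM at P1 (3.23-fold, edgeR adjusted p = 1.25e-05). Kcnj11, the form of ventricular myocytes and pancreatic beta cells, had 9.57, 9.69 and 11.7 CPM at P14 and 9.90, 2.33 and 10.3 CPM at P1 (edgeR adjusted p = 0.406). P1 replicate 2 was low for Kcnj11, and the other P1 libraries lay within the P14 range or just beside it. Kcnj11 took 8.76, 9.09 and 12.3% of the pair per kilobase at P14 and 27.3, 7.64 and 24.0% at P1, with overlap (exact permutation p = 0.4), so a difference between the pores in their change was not shown. The sulfonylurea receptor genes lie next to the pore genes. Abcc9, 16.2 kb from Kcnj8, had 102, 174 and 196 CPM at P14 and 110.1, 174 and 140.1 CPM at P1 and did not pass (edgeR adjusted p = 0.651). Abcc8, 3.8 kb from Kcnj11, had 52.9, 54.8 and 53.8 CPM at P14 and 39.0, 19.2 and 40.1 CPM at P1 and rose by 0.72 on the log2 scale (edgeR adjusted p = 0.0312), a call that ended without P14 replicate 1 (0.0663), 2 (0.089) or 3 (0.0777), with library totals alone (0.373) and after GC and length correction (0.0962). P1 replicate 2 was the lowest library for Abcc8 as for Kcnj11. Of 7 smooth muscle and pericyte markers 4 rose, 2 fell and 1 did not pass. Myh11, Tagln, Rgs5 and Pdgfrb rose 4.99, 1.7, 3.84 and 1.96-fold, and Cnn1 and Acta2 fell 3.21 and 1.67-fold. The markers summed to 1711 to 2130 CPM at P14 and 1747 to 2649 CPM at P1. Most of that sum was Acta2, which averaged 1129 CPM at P14 and 1880 CPM at P1. The part of smooth muscle and pericytes in the rise of Kcnj8 was not tested.

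Kcnj15 did not pass (log2 fold change −0.69, edgeR adjusted p = 0.237), but was called lower with library totals alone (log2 fold change −1.19, 0.0189). Kcnj4, a relative of Kcnj2, was left out by the filter, with 2, 0 and 3 counts at P14 and 65, 9 and 5 counts at P1, where P1 replicate 1 held most of the reads. With no filter it was called lower at P14 (log2 fold change −3.13, edgeR adjusted p = 0.0124).

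The leak channel Kcnk3, an acid-sensitive channel that helps to set the resting potential, had the largest difference in CPM per kilobase of exon between ages among the 60 members. It had 262, 291 and 329 CPM at P14 and 33.5, 43.9 and 36.7 CPM at P1, a 7.72-fold rise (log2 fold change 2.95 ± 0.21, SE; edgeR adjusted p = 2.0e-07). After GC and length correction the log2 fold change was 2.35. Per kilobase of exon it was the highest of all 60 members at P14, with 74.0 CPM per kilobase, and ranked 7 at P1, with 9.57. Its gene lies on chromosome 5 at 30588170 to 30625271. Kcnk6 rose as well, with 5.10 ± 0.487 CPM at P14 and 2.31 ± 0.596 CPM at P1 (SD, n = 3; edgeR adjusted p = 0.0111), a call that ended with library totals alone (0.18). Kcnk2, a stretch-sensitive leak channel, had 3.07 ± 0.611 CPM at P14 and 2.57 ± 0.393 CPM at P1 and did not pass (edgeR adjusted p = 0.628).

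Of 5 genes of calcium- and sodium-activated potassium channels 1 rose, 1 fell and 3 did not pass. Kcnt2, a sodium-activated channel, had 1.06, 1.86 and 2.70 CPM at P14 against 0.648, 0.758 and 0.168 CPM at P1 (edgeR adjusted p = 0.0209). Kcnmb4, an accessory subunit best known from neurons, had 0.633, 0.531 and 1.29 CPM at P14 against 3.05, 1.57 and 1.51 CPM at P1 (edgeR adjusted p = 0.0261). Both were low, with 1 to 21 counts per library for Kcnt2 and 4 to 66 for Kcnmb4. The call of Kcnt2 ended without P14 replicate 2 (0.0569), P14 replicate 3 (0.116) or P1 replicate 3 (0.0583) and with library totals alone (0.0706). That of Kcnmb4 ended without P14 replicate 1 (0.108), P14 replicate 2 (0.105) or P1 replicate 1 (0.173) and after GC and length correction (0.0504). The small-conductance channel Kcnn1 had 13.4, 12.2 and 11.3 CPM at P14 and 8.51, 9.39 and 6.74 CPM at P1, with no overlap (edgeR adjusted p = 0.0643). With the replicate number as a block it was called higher (0.0481), as it was without P1 replicate 2 (0.0266). Its relative Kcnn2 and Kcnmb1, the smooth muscle partner of the large-conductance channel, did not pass, with log2 fold changes of 0.12 and 0.64.

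Pacemaker channels conduct inward current on hyperpolarization. Hcn2 had 29.9, 23.1 and 25.2 CPM at P14 and 2.36, 1.57 and 2.86 CPM at P1, an 11.9-fold rise (log2 fold change 3.58 ± 0.28, SE; edgeR adjusted p = 3.97e-07). After GC and length correction the log2 fold change was 2.80, still called higher (1.17e-07). Hcn4, the main form of the sinus node, was near the lower limit of detection, with 4, 8 and 8 counts at P14 and 27, 24 and 12 counts at P1. Its log2 fold change of −1.02 ± 0.52 (SE) did not pass (edgeR adjusted p = 0.122). It was called lower with library totals alone (0.0123) and after GC and length correction (0.0135), in the second case also with the replicate block (0.00479). Per kilobase of exon Hcn2 took 99.5, 97.7 and 97.9% of the Hcn2 and Hcn4 level at P14 and 78.3, 68.3 and 73.1% at P1. Of the 6 conduction system markers listed, 4 were in the table. Cntn2 and Tbx3 rose, Gja5 fell and Hcn4 itself did not pass, with a sum of 28.4 to 29.7 CPM at P14 and 29.9 to 37.9 CPM at P1.

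Sodium channel pores carry the upstroke of the action potential. Scn10a, a sodium channel of sensory neurons, fell. It had 2.53, 2.39 and 2.58 CPM at P14 and 6.80, 8.86 and 6.57 CPM at P1 (log2 fold change −1.57 ± 0.29, SE; edgeR adjusted p = 5.51e-04).

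Scn4a, the main pore of skeletal muscle, had 4.01, 9.69 and 5.92 CPM at P14 against 0.833, 1.22 and 0.673 CPM at P1 and rose 6.73-fold (edgeR adjusted p = 9.50e-05). Of 5 skeletal muscle markers only Acta1 was in the table, and it did not pass, with 104 to 138 CPM at P14 and 23.6 to 84.5 CPM at P1. Scn7a, a sodium-sensing relative known from glia, had 10.4, 20.9 and 19.4 CPM at P14 against 2.08, 2.80 and 3.87 CPM at P1 and rose 6.02-fold (edgeR adjusted p = 2.93e-05). Of 10 neuron and Schwann cell markers 4 were in the table. Dbh and Sox10 rose and the rest of them, S100b included, did not pass, with sums of 37.5 to 45.3 CPM at P14 and 6.57 to 8.19 CPM at P1. Sox10, a factor of Schwann cells, averaged 2.75 CPM at P14 and 0.172 CPM at P1. The part of nerve or glia in the rises of Scn7a and Kcna1 was not tested.

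Scn3a was left out by the filter, with 12, 15 and 21 counts at P14 and 7, 9 and 2 at P1. With no filter it was called higher at P14 (log2 fold change 2.11, edgeR adjusted p = 0.0064). Scn3b, a beta subunit that anchors and modulates the pores, did not pass. It had 2.0 ± 0.315 CPM at P14 and 1.16 ± 0.912 CPM at P1 (SD, n = 3; edgeR adjusted p = 0.115). It was called higher with the replicate block (0.0456), after GC and length correction (0.04) and without P1 replicate 3 (0.0195).

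Of 6 calcium channel pores 1 rose, 2 fell and 3 did not pass. Cacna1c, the L-type pore of ventricular myocytes that triggers contraction, had 61.4, 129 and 128 CPM at P14 and 49.9, 60.7 and 85.0 CPM at P1 (log2 fold change 0.71 ± 0.29, SE; edgeR adjusted p = 0.0621). P14 replicate 1 stood with the P1 libraries. The gene was called higher with the replicate block (0.00803), with DESeq2 (0.0448), after GC and length correction (0.0295), and without P14 replicate 1 (0.00776) or P1 replicate 3 (0.0372). Cacna1d, the L-type pore of the sinus node and atria, had 1.76, 3.45 and 4.89 CPM at P14 and 3.19, 5.07 and 5.72 CPM at P1 and did not pass (edgeR adjusted p = 0.331), but was called lower with library totals alone (0.0284).

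Of the T-type pores, Cacna1h fell and Cacna1g did not pass. Cacna1h had 8.09, 10.4 and 14.0 CPM at P14 and 25.5, 15.1 and 20.2 CPM at P1 and fell by 0.92 ± 0.27 on the log2 scale (SE, edgeR adjusted p = 0.0132). That call ended without P14 replicate 1 (0.0666), P14 replicate 2 (0.0546) or P1 replicate 1 (0.0569). After GC and length correction the value was −1.64 (2.45e-06). Cacna1g had 22.9, 22.97 and 25.0 CPM at P14 and 26.9, 18.6 and 20.7 CPM at P1 and did not pass (log2 fold change 0.09 ± 0.21, SE; edgeR adjusted p = 0.755). Its sign depended on the processing: it was −0.51 and called lower after GC and length correction (0.0208), and −0.38 and not called with library totals alone (0.255). Per kilobase of exon Cacna1g took 73.1, 68.1 and 63.2% of the 2 T-type genes at P14 and 50.4, 54.3 and 49.7% at P1.

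Cacna1s, the pore and voltage sensor of skeletal muscle, had 3.52, 1.99 and 3.22 CPM at P14 against 0.463, 0.700 and 0.505 CPM at P1 and rose 5.18-fold (edgeR adjusted p = 4.43e-04). For this gene 82.6% of the transcript's 36-base windows had no match elsewhere, the rest lying mainly in Gm37759 on the opposite strand. Cacna1a, a neuronal pore, had 1.90, 2.12 and 1.67 CPM at P14 and 4.12, 1.98 and 6.57 CPM at P1. The ages overlapped in P1 replicate 2, and the edgeR adjusted p was 0.0487. That call ended with DESeq2 size factors (0.0507) and without P14 replicate 1 (0.121), 2 (0.0904) or 3 (0.13) or P1 replicate 1 (0.0785) or 3 (0.225).

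The alpha2delta subunits, which bring the pores to the membrane, moved in opposite directions. Cacna2d1, the main cardiac form, had 55.7, 83.9 and 111 CPM at P14 and 20.96, 40.4 and 28.1 CPM at P1 and rose 2.79-fold (edgeR adjusted p = 0.00116). Cacna2d2 had 0.845, 1.59 and 3.09 CPM at P14 and 11.2, 10.3 and 9.43 CPM at P1 and fell 5.92-fold (edgeR adjusted p = 1.06e-04), with log2 fold changes of −2.56 from all libraries and −3.16 without P14 replicate 3. Per kilobase of exon Cacna2d1 took 97.7, 97.1 and 95.8% of the pair at P14 and 54.4, 71.5 and 65.6% at P1. Of the beta subunits, which chaperone the pores and tune their opening, Cacnb2 rose and 3 did not pass. Cacnb2, the main cardiac form, had 59.9, 77.4 and 65.2 CPM at P14 and 30.2, 46.1 and 39.7 CPM at P1 (1.75-fold, edgeR adjusted p = 0.00666), a call that ended with library totals alone (0.275). Cacnb3 had 12.5, 8.90 and 8.63 CPM at P14 and 16.7, 8.16 and 20.4 CPM at P1 and did not pass (edgeR adjusted p = 0.167). It was called lower without P1 replicate 2, the low P1 library for this gene (0.00562), with library totals alone (0.00495) and after GC and length correction (4.15e-04). Cacnb1 and Cacnb4 did not pass, with log2 fold changes of 0.34 and 0.25.

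Class totals in CPM per kilobase of exon did not all follow the counts of calls. The K2P class had 67.5, 75.2 and 84.8 at P14 and 9.64, 12.2 and 10.1 at P1, of which Kcnk3 made 97.6% at P14 and 89.9% at P1. Inward rectifiers had 57.1, 58.8 and 55.5 at P14 and 32.2, 36.9 and 35.3 at P1, with Kcnj8 the highest of the class at P14 and Kcnj5 at P1. The pores of voltage-gated potassium channels had 54.0, 49.2 and 55.5 at P14 and 51.0, 38.9 and 52.4 at P1, so the ages overlapped. Within them Kcnq1 held 38.2% at P1 and Kcng2 led with 26.4% at P14. Calcium channel pores had 6.82, 10.2 and 10.98 at P14 and 8.31, 6.93 and 9.23 at P1, again with overlap.

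**Figure D3:**
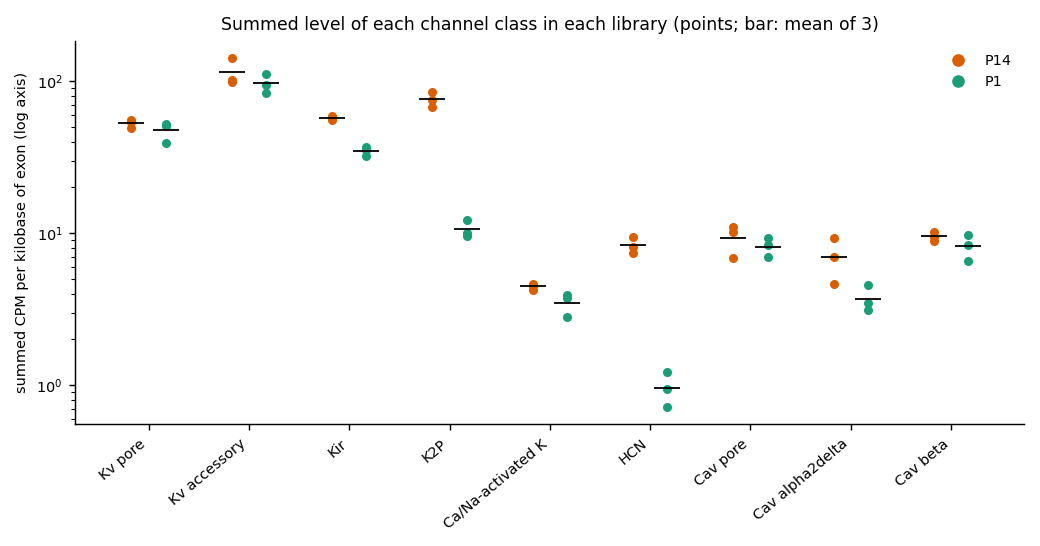
Summed CPM per kilobase of exon of the potassium, HCN and calcium channel classes (log axis) in each P14 library (orange) and P1 library (green), with a bar at the mean. The K2P class (67.5 to 84.8 at P14, 9.64 to 12.2 at P1) and the HCN class are set apart between ages, while the pores of voltage-gated potassium channels and of calcium channels overlap.

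A share within a library does not depend on how libraries are scaled, so 10 shares of a gene among close relatives were compared between ages in an exact two-sided permutation test. With 3 libraries per age its smallest possible p is 0.1, so none could pass, and after Benjamini-Hochberg adjustment the smallest was 0.2. The shares with no overlap between ages, each with an exact p of 0.1, were those of Hcn2, Kcnj3, Cacna1c, Cacna1g and Cacna2d1. That of Hcn2 averaged 98.4 ± 1.01% at P14 and 73.2 ± 5.02% at P1 (SD, n = 3). That of Cacna2d1 averaged 96.9 ± 0.956% at P14 and 63.8 ± 8.68% at P1. Cacna1c took 95.4, 95.7 and 94.0% of the 2 L-type genes at P14 and 90.3, 87.7 and 89.8% at P1. Others overlapped. Kcnd2 took 74.7 ± 6.36% of Kcnd2 and Kcnd3 at P14 and 78.9 ± 10.1% at P1 (exact p = 0.6), and Kcnj2 took 48.4 ± 8.65% of Kcnj2 and Kcnj12 at P14 and 44.6 ± 11.1% at P1 (exact p = 0.9).

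**Figure D4:**
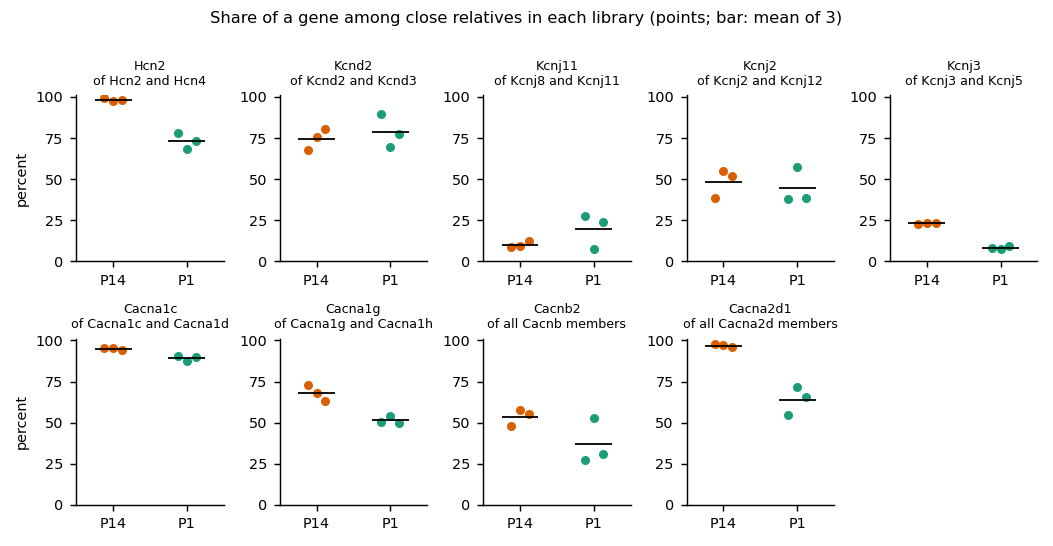
Share (percent of CPM per kilobase of exon) of 9 genes among their close relatives in each P14 library (orange) and P1 library (green), with a bar at the mean. Hcn2 and Cacna2d1 lie at 95.8% or more in every P14 library and between 54.4% and 78.3% in the P1 libraries, and Kcnd2 and Kcnj2 overlap between ages.

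Proteins that bind or regulate these channels were read from a separate list of 51 genes, of which 41 were in the table and 40 were tested. Of these 11 rose, 11 fell and 18 did not pass, 55.0% called against the background of 43.8%. Rrad, a small G protein that inhibits L-type calcium channels, had 151, 146 and 138 CPM at P14 against 20.6, 15.3 and 28.3 CPM at P1 and rose 6.85-fold (edgeR adjusted p = 8.29e-07). Its relative Gem fell 2.90-fold, with 1.90, 1.33 and 1.16 CPM at P14 and 4.16, 4.61 and 4.38 CPM at P1 (edgeR adjusted p = 0.00204). Lrrc55, an auxiliary subunit of large-conductance potassium channels, rose by 2.17 on the log2 scale (edgeR adjusted p = 0.00534). It had 31, 12 and 18 counts at P14 and 4, 15 and 1 counts at P1, and the value was 3.42 without P1 replicate 2.

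Irx3, a factor of the ventricular conduction system, rose 2.27-fold (edgeR adjusted p = 7.15e-04), a call that ended after GC and length correction (0.185), while Irx5, which represses Kcnd2 in mouse ventricle, had 2.27 ± 0.484 CPM at P14 and 1.91 ± 0.487 CPM at P1 (SD, n = 3; edgeR adjusted p = 0.708). Bves, a cyclic AMP-binding protein that interacts with the leak channel Kcnk2, fell 4.26-fold, with 32.2, 30.8 and 26.9 CPM at P14 and 121, 129 and 134 CPM at P1 (edgeR adjusted p = 1.46e-06). Its relative Popdc3 fell 2.92-fold (edgeR adjusted p = 2.87e-05), the syntrophin Sntb1 fell 6.71-fold (edgeR adjusted p = 0.00622; 0.0584 without P1 replicate 2; log2 fold change −2.75, −2.15 without P14 replicate 1 and −3.47 without P14 replicate 3), and Nedd4l, a ubiquitin ligase that removes ion channels from the membrane, fell 2.62-fold (edgeR adjusted p = 7.72e-05). Calm2 and Calm3, genes of the calcium sensor calmodulin, which binds many of these channels, both fell. Calm2 averaged 40.2 CPM at P14 and 65.0 CPM at P1 (edgeR adjusted p = 0.0108), and Calm3 129 CPM at P14 and 209 CPM at P1 (edgeR adjusted p = 0.0288). The call of Calm2 ended without P14 replicate 2 (0.0601), and that of Calm3 without P14 replicate 2 (0.129), P14 replicate 3 (0.0979), P1 replicate 1 (0.0765) or P1 replicate 3 (0.13). Gpd1l and Nedd4 were called higher and lower at P14, calls that held without any one library, although that of Gpd1l ended with library totals alone (0.411). Further called partners were Ank2, Akap6, Rem1 and Ahnak, higher at P14, and Fgf11, Slmap and Stac2, lower at P14. The call of each ended without at least 1 library (0.058 to 0.172). With library totals alone the calls of Ank2 (0.395), Akap6 (0.234), Rem1 (0.148) and Ahnak (0.294) ended as well. That of Rem1 also ended after GC and length correction (0.0725), and those of Fgf11 (0.0554) and Stac2 (0.0694) with DESeq2. With the replicate block Trpm4 (0.0335) and Akap9 (0.0273) were called higher.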

How the data were processed

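Poly(A)-selected RNA of pooled ventricles was sequenced for 36 cycles, per the labels. The authors deposited unnormalised read counts per gene, and no gene has under 60 counts in all. The submitters' processing notes name GRCm38 (mm10), bedtools and edgeR 3.2.4 without their roles. The aligner, the counter and the use of strand were not given in the sources used here, and antisense genes cannot be told apart.

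Counts were analysed in R 4.3.3 with edgeR 4.0.16 (robust quasi-likelihood test, filterByExpr with a minimum count of 10, TMM scaling, age as the only term, Benjamini-Hochberg over 14301 genes, two-sided). DESeq2 1.42.0 was an alternative. Standard errors were taken as the log2 coefficient over the root of its F statistic, CPM are TMM-scaled, and numbers in parentheses after a setting are adjusted p values. In simulated counts of P14 against P1 (14495 genes, 200 changed) the fit recovered 98% of 4-fold and 38% of 2-fold changes. In the real data 43.8% of the tested genes were called, and the adjusted p depends on how many genes change. These percentages are therefore a check of the fit and not the power of the real comparison. Counting error is largest in P1 replicate 3, the shallowest library. No library was a duplicate of another: P14 replicates 2 and 3, the most alike, still differed with a chi-square of 12.4 per degree of freedom.

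Lengths, positions and matching 36-base windows came from GENCODE M21 (GRCm38), which held 14316 of the 14495 genes. The members, lists and named genes were chosen with earlier results of these data known. Named were 26 subunits of known currents, whatever their result, and the 3 called genes with the largest change in each class, 40 genes together, of which some are not reported here. Remaining members are named with their direction or value. For libraries that share a replicate number in the labels, deviations from the age means had correlations of 0.295, 0.112 and 0.102. Those of other pairs were −0.214 to 0.09. The rule of every correlation above 0.1 was met by a small margin, so a pairing of the libraries by number was not established. The labels state no pairing. The fit with the replicate number as a block is an alternative, given where it changes a call.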

Additional observations from a re-analysis of the deposited data

How the results depend on the processing

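The fit with TMM scaling called 23 rises and 11 falls among the channel genes, and 11 and 11 among the partner genes. The shares of all tested genes given above belong to that fit. For the counts in the settings below no such background is given. With library totals alone 15 channel genes rose and 17 fell, and 4 partner genes rose and 16 fell, a setting that moves the median of all genes to −0.472. With a filter of over 5 CPM in 3 libraries, which leaves 29 channel genes to test, 13 rose and 5 fell. With an adjusted p under 0.01 the falls of channel genes numbered 5, and 5 partner genes rose and 6 fell. Leaving out each library in turn gave 19 to 24 rises and 6 to 10 falls of channel genes, and 5 to 9 rises and 6 to 10 falls of partner genes. With the replicate block 26 channel genes rose and 11 fell. Cacna1c, Kcnn1, Scn3b, Trpm4 and Akap9 gained calls with that block, and it changed no other call reported here.

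With raw counts and no length division the P14 minus P1 difference in share was 37.9 percentage points for Hcn2, 15.9 for Kcnj3 and 3.66 for Cacna1c, beside 25.1, 14.8 and 5.75 per kilobase. Leaving out each library moved that difference within 22.7 to 27.7 for Hcn2, −8.93 to 1.16 for Kcnd2, −15.6 to −5.76 for Kcnj11, 0.347 to 10.2 for Kcnj2, 14.3 to 15.4 for Kcnj3, 4.96 to 6.28 for Cacna1c, 14.2 to 19.2 for Cacna1g, 11.6 to 24.4 for Cacnb2 and 28.3 to 36.9 for Cacna2d1. Among named genes, the log2 fold change of Cacna1g was −0.375 with library totals alone, −0.508 after GC and length correction, −0.502 with the replicate block added to that, and from −0.0308 (without P1 replicate 2) to 0.265 when single libraries were left out. Kcne1 ranged from −0.404 to 0.156 when single libraries were left out, with 0.0166 without P1 replicate 1. The causes were not tested.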
